A study of Mus musculus with 9 samples.

Results

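The 44 mitosis and spindle genes described here drive, check and complete the division of a cell. They were chosen by name: every non-control probe whose gene name, or whose accession matched to a symbol, was one of the 44, with older names counted (Cdc2a for Cdk1). All 44 were on the array, with 74 of its 41174 probes and 44 of its 27573 genes, and 43 were among the 14253 genes tested. Pttg1 was left out of the tests because its only probe was marked as an outlier on one array.

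RNA was measured on 9 two-colour Agilent arrays. The groups, each with 1 array from each of mice 832, 833 and 834, were the day 10 TIC fraction, day 10 Blood and day 0 Blood. All 3 mice were female BALB/c athymic animals, which lack a thymus and most T cells but keep B cells, natural killer cells and myeloid cells. They were inoculated under the skin with Hepa1-6 cells, a mouse hepatoma line that itself divides. The TIC fraction was obtained from the ground tumour of day 10 as a preparation enriched in infiltrating inflammatory cells, and day 0 Blood was taken before inoculation. Sample RNA carried Cy5, and Cy3 carried the same reference on every array, RNA from blood of one C57Bl/6 female that had no treatment. Different kits were used to extract RNA from tumour and from blood. Values below are log2 ratios of Cy5 over Cy3 after loess normalization within each array, or differences in it with the fit's SE. Values of 3 arrays follow the order of mice 832, 833 and 834.

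A cell enters mitosis when cyclin-dependent kinase CDK1, bound to an A- or B-type cyclin, becomes active. Aurora and Polo-like kinases and kinesin motors then build the spindle, the checkpoint proteins hold the cell until all kinetochores are attached, and the anaphase-promoting complex marks securin and the cyclins for destruction so that the sister chromatids part. Most of these genes are transcribed in the G2 phase and in mitosis and are low in resting cells. In blood, dividing cells are few, while growing tumours and some infiltrating cells divide.

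The label of the TIC fraction was checked first against cell type markers. The 3 pan-leukocyte genes (Ptprc, Laptm5, Coro1a) were well above background on all 9 arrays, and all 3 were lower in the TIC fraction than in either blood by loess. With median centring 2 of the 3 were higher than in day 10 Blood and none was called against day 0 Blood. Of all tested genes 34.4% were higher and 33.1% lower than in day 10 Blood by loess, and 72.1% and 3.25% with median centring. Against day 0 Blood 33.6% were lower by loess, and with median centring 9432 of 14253 were higher and 816 lower. The marker counts in this paragraph stand beside these shares. Against day 10 Blood all 6 erythroid, all 5 B cell, all 4 T cell and all 4 platelet genes tested were lower by loess, as were 3 of 6 neutrophil genes, and of 7 stroma and endothelium genes 4 were lower and 1 higher. With median centring the 6 erythroid, 3 B cell and 3 platelet genes were still lower, and no T cell, neutrophil or stroma gene was. Of 8 macrophage genes tested, 4 were higher and none lower than in day 10 Blood by loess, and all 8 were higher with median centring. Of 8 hepatoma and liver genes tested, 6 were higher and 2 lower than in day 10 Blood. Afp, the alpha-fetoprotein gene, differed by 5.35, and it was well above background on all 3 TIC arrays and on 1 of 3 day 10 Blood arrays. On the TIC arrays 8, 7 and 9 of 9 hepatoma and liver genes were well above background, and all 8 macrophage genes were on each of them. The part of either cell type in the values below was not tested, and a difference in the number of dividing cells and one in RNA per cell cannot be told apart in such samples. The TIC arrays of mice 832 and 834 correlated at 0.99 over the tested genes, while the TIC array of mouse 833 correlated with these at 0.88 and 0.90.

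All 44 genes were measured in the TIC fraction, and most were too dim to measure in day 10 Blood. On each of the 3 TIC arrays 44 of 44 were well above background in Cy5. On the day 10 Blood arrays the number was 11, 15 and 10 (25%, 34.1% and 22.7%). The day 0 Blood arrays had 23, 22 and 12 (52.3%, 50% and 27.3%). In day 10 Blood 28 of the 44 were above background on no array and in day 0 Blood 18 were. The share of all genes on the array above background was 55.4%, 52% and 49.8% in the TIC fraction, 21.3%, 24.9% and 17.1% in day 10 Blood and 41.7%, 36.5% and 28.8% in day 0 Blood. The Cy3 reference blood showed 26 to 30 of the 44 on every array. Genes above background on all 9 arrays were Ccna2, Ccnb2, Cks2, Ube2c, Pttg1, Birc5, Incenp, Nusap1 and Mki67.

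**Figure D1:**
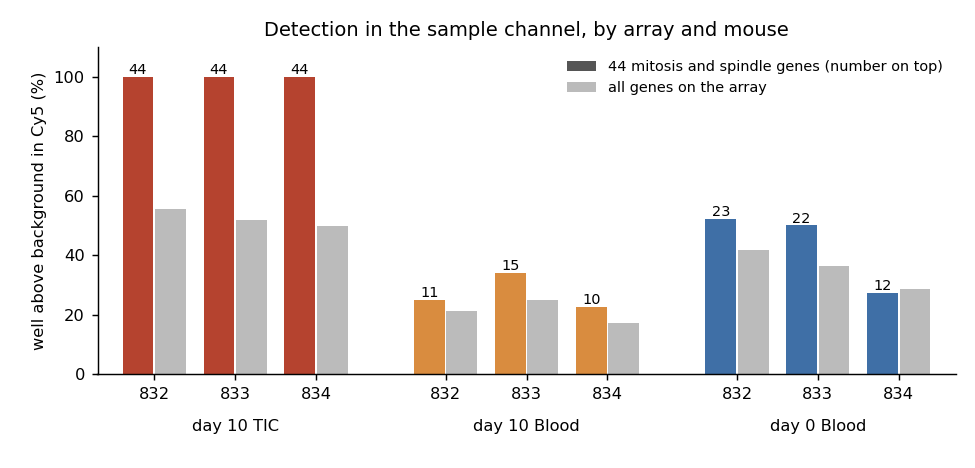
Share of genes well above background in Cy5, the sample channel, in percent, on each of the 9 arrays. Coloured bars are the 44 mitosis and spindle genes, with their number on top, and grey bars are all genes on the array. All 44 were detected on each TIC array, 10 to 15 on the day 10 Blood arrays and 12 to 23 on the day 0 Blood arrays.

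The TIC fraction was set against blood of the same day to see which of these genes differ between tumour and circulation. Of the 43 tested, 32 were higher in the TIC fraction, where 34.4% of all tested genes were, and 4 were lower, where 33.1% were (limma, Benjamini-Hochberg adjusted p under 0.05). The filter bears on this count: 18 of the 43 were on no blood array above background and entered the test through the TIC arrays alone, so that they had to lie higher there, and 17 of the 18 are among the 32. Of the 8 genes above background on all 9 arrays with values on each, 2 were higher and 4 lower, with a median difference of -0.69. Of all 3897 genes that pass this filter, 692 were higher and 2264 lower, with a median of -0.998, and 5 of the 8 lay above that median. The median over the 43 was 0.85 with loess, against 0.07 over all tested genes, 2.78 with the deposited log ratio, against 0.85 over all genes, and 2.55 with each array centred on its median, against 1.38. Against day 0 Blood 33 were higher (31.7% of all genes) and 2 lower (33.6%), with a median of 0.84, where all 18 genes detected on the TIC arrays alone are among the 33. The 2 comparisons share their TIC arrays. The 32 genes included the cyclin-dependent kinase subunits Cks1b and Cks2, the spindle gene Psrc1, the checkpoint gene Mad2l1, the anaphase activator gene Cdc20 and the survivin gene Birc5. The 4 lower ones were Nusap1, Ube2c, Ccna2 and Mki67. The remaining 7 were Ccnb2, Foxm1, Kif20a, Incenp, Anln, Prc1 and Hmmr.

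The direction of the 4 lower genes depended on the scaling. Before any normalization, net Cy5 intensity (spot minus local background) was higher on all 3 TIC arrays than on all 6 blood arrays for 42 of the 43 tested genes and for Pttg1, against 75% of all tested genes. Nusap1 was the exception, and the statement for Pttg1 includes its flagged spot on the TIC array of mouse 832. The arrays differed in brightness as a whole: the median net Cy5 over tested genes was 268, 124 and 122 on the TIC arrays, 5.85, 7.53 and 4.49 on the day 10 Blood arrays and 25.1, 19.5 and 10.2 on the day 0 Blood arrays. With each array centred on its median instead of loess, the median of all tested genes moved to 1.38, 40 of the 43 genes were higher than in day 10 Blood (72.1% of all genes) and none was lower (3.25%). Of all genes called in either direction, 95.7% were then higher, against 51.0% with loess, and 63.3% were with the deposited log ratio. Relative to the median of all genes, 36 of the 43 lay above it with loess, 34 with the deposited log ratio, 35 with Cy5 alone and 33 with median centring. The higher share of these genes in the TIC fraction had the same direction under the 4 scalings, while Ube2c, Ccna2 and Mki67 had values below all genes with 3 of them and above with median centring.

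**Figure D2:**
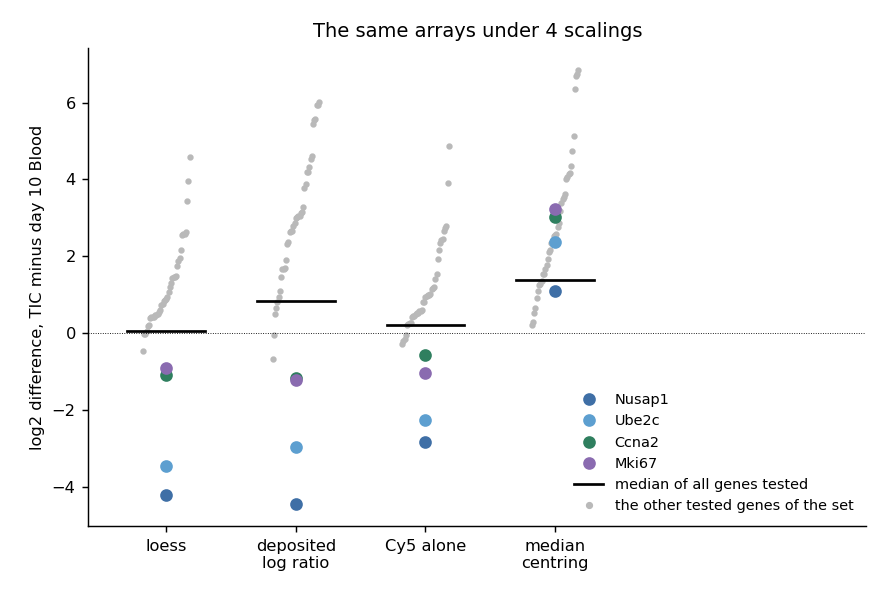
Differences in log2 value, TIC fraction minus day 10 Blood, for the 43 tested genes under 4 scalings of the same arrays. Coloured points are the 4 genes lower under loess, grey points the other 39, and black lines the median of all 14253 tested genes. Most grey points lie above the black line in each column, and the coloured points, below it in the other columns, lie near or above it with median centring.

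Of the 32 genes higher than in day 10 Blood, 7 were above background on at least 1 of its 3 arrays. Cks2 and Birc5 were so on all 3, Cdca8 and Cenpe on 2, and Cdc20, Cenpa and Top2a on 1. The sizes given below for genes on 1 or 2 of these arrays rest in part on dim values. The other 25 were on no day 10 Blood array above background, so their difference has no reliable size. For 14 of these a lower bound of the fold, written below as at least, could be set on the loess scale. It refers to the group means of the probe used, and single mice and further probes can lie below it. It does not cover other scalings or a slide effect. For the other 11 the bound lay above the fitted fold and bounds nothing, and they are given with their ratios and adjusted p only.

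Promoters of the set, whichever way its genes differed, were looked up because genes of late cell cycle share sequence elements there. The cell cycle genes homology region (CHR), with the letters TTTGAA or TTCGAA, is bound by complexes built on the MuvB core, and the letters CCAAT are bound by the factor NF-Y. RefSeq promoters (build GRCm38.p6, 250 bases before to 50 after the start) were found for 38 of the 44 genes, with 41 starts. Searched on both strands, CCAAT stood in 33 of the 41 (80.5%), against 37.4% of all 32851 promoters of the table. TTTGAA stood in 29 (70.7% against 17.9%) and TTCGAA, which reads the same on both strands, in 5 (12.2% against 1.56%). A CHR of either spelling together with CCAAT stood in 29 (70.7%), against 7.52% of all promoters. These are matches of letters and no measure of binding. Positions below are those of the first base of a match, with the start counted as 1. The stretches below run 110 bases before to 50 after the start, 5′ to 3′ on the strand of the gene, with the letters searched in capitals on either strand. The first 5 genes were higher in the TIC fraction, and the last 2 had the largest values below blood.
Psrc1 (chr3:108383694-108383853, plus strand, one of its 2 starts): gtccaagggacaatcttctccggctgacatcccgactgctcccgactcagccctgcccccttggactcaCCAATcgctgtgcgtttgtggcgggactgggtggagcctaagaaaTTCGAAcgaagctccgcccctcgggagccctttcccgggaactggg
Cks1b (chr3:89418242-89418401, minus strand): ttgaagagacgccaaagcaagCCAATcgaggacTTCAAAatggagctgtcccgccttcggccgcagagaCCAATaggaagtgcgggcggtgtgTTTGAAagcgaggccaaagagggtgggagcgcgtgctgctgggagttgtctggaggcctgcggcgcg
Cdc20 (chr4:118437294-118437453, minus strand): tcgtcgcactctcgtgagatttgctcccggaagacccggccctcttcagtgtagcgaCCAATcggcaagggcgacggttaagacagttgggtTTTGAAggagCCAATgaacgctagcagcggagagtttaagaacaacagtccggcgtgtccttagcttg
Plk1 (chr7:122159325-122159484, plus strand): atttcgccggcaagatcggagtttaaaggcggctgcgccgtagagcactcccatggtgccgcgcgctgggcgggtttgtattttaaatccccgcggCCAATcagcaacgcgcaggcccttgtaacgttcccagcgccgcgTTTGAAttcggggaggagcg
Cdk1 (chr10:69352863-69353022, minus strand): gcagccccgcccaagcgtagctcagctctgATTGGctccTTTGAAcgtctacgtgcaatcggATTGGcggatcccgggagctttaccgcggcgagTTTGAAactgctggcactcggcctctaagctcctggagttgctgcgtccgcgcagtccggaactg
Ube2c (chr2:164769819-164769978, plus strand): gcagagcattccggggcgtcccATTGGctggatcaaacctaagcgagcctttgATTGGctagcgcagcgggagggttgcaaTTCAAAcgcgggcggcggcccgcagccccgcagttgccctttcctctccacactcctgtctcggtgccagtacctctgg
Nusap1 (chr2:119618188-119618347, plus strand): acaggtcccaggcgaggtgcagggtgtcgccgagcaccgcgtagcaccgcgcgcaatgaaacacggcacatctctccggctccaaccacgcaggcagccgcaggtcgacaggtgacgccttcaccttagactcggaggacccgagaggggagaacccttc
In the Cdc20 promoter TTTGAA begins at -18, between CCAAT at -53 and at -8, and Cks1b carries it at -77 (read on the other strand) and -17. Plk1 has CCAAT at -14 and TTTGAA at 31, and the printed start of Psrc1 has CCAAT at -41 and TTCGAA at 5. Ube2c, which moved the other way under loess, carries the same elements, with TTTGAA at -29, while the stretch of Nusap1 holds none of the 3. The promoters of Birc5, Mad2l1 and Melk, which were higher in the TIC fraction, hold none of the 3 either. The letters were not tested against direction.

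Among the genes of CDK1, its cyclins and its regulators, 4 of 7 were higher in the TIC fraction than in day 10 Blood and 1 was lower. Cdk1, the mitotic kinase itself, had ratios of 2.52, 1.35 and 2.44 on the TIC arrays, against -0.01, -0.09 and -0.06 on the day 10 Blood arrays and -0.01, 0.04 and -0.17 on the day 0 Blood arrays. All 3 TIC arrays lay above all blood arrays, where the gene was never above background (adjusted p = 0.000166 against day 10 Blood, limma). A further Cdk1 probe was above background on none of the 9 arrays. Cks1b, a small subunit that docks CDK1 to its substrates, had ratios of 4.25, 3.03 and 4.31 in the TIC fraction, -0.16, -0.05 and -0.10 in day 10 Blood and -0.35, -0.01 and -0.21 in day 0 Blood (adjusted p = 9.21e-06 against day 10 Blood). Its net Cy5 was 26241, 2654 and 11005 on the TIC arrays and at most 24.5 on any blood array. Cks2, its close relative, was above background on all arrays and differed by 3.45 ± 0.31 (SE, n = 3 arrays a group; adjusted p = 1.91e-05) from day 10 Blood and by 3.46 ± 0.31 from day 0 Blood. A further Cks2 probe was on no day 10 Blood array above background. Ccnb1, the cyclin B1 gene, had ratios of 1.48, 0.83 and 1.74 in the TIC fraction and was at least 2.45-fold higher than in day 10 Blood (adjusted p = 0.00035). Further Ccnb1 probes, on no blood array above background, had smaller differences of 0.79 and 0.71, so the bound holds for the probe used only.

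The 3 other genes of this group had different values. Ccna2, which encodes cyclin A2, had ratios of -1.96, -1.34 and -1.69 in the TIC fraction, -0.75, -0.69 and -0.29 in day 10 Blood and -1.64, -2.11 and -1.58 in day 0 Blood. The difference was -1.09 ± 0.21 from day 10 Blood (adjusted p = 0.0019, 3.02 with median centring) and 0.11 ± 0.21 from day 0 Blood (adjusted p = 0.647). With Cy5 alone it was -0.57 (adjusted p = 0.0594). Ccnb2, the cyclin B2 gene, differed by -0.47 ± 0.27 from day 10 Blood (adjusted p = 0.151), and without the TIC array of mouse 833 by -0.72 (adjusted p = 0.0174, limma). Foxm1, which encodes a transcription factor of G2 and mitosis genes, differed by 0.21 ± 0.13 from day 10 Blood (adjusted p = 0.196) and by 0.42 ± 0.13 from day 0 Blood (adjusted p = 0.0238). The call against day 0 Blood was lost with the mouse as a replicate block (adjusted p = 0.0503).

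All 4 mitotic kinase genes were higher in the TIC fraction than in each blood, and the filter bears on this. Plk1, Melk and Nek2 were on no blood array above background and entered the test through the TIC arrays alone. Aurka was above background on 1 day 0 Blood array and on no day 10 Blood array. Plk1, the Polo-like kinase of spindle assembly, had ratios of 1.65, 2.12 and 2.07 in the TIC fraction, -0.09, 0.06 and -0.03 in day 10 Blood and -0.09, 0.00 and -0.06 in day 0 Blood (adjusted p = 5.31e-06 against day 10 Blood). Aurka, the centrosomal Aurora kinase, had 1.42, 2.15 and 1.92 in the TIC fraction, against -0.12, 0.04 and -0.08 in day 10 Blood (adjusted p = 2.93e-05). The TIC and blood arrays did not overlap for either. Melk, a kinase gene of dividing cells, was at least 1.74-fold higher than in day 10 Blood (adjusted p = 0.000169). Nek2, a kinase of centrosome separation, was at least 1.37-fold higher (adjusted p = 0.0128) with TIC ratios of 0.19, 0.87 and 0.81. The log2 difference of mouse 832 was 0.12, which lies below that bound.

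The 4 spindle checkpoint genes also were higher than in each blood, and the filter bears on this count as well. All 4 were below background on all 6 blood arrays and entered the test through the TIC arrays alone. Mad2l1, which encodes the checkpoint protein MAD2, had ratios of 3.23, 0.95 and 3.33 in the TIC fraction and between -0.25 and 0.06 on the blood arrays. Mouse 833 was far below the other mice, yet above every blood array, and the gene was higher than in day 10 Blood (adjusted p = 0.00268). The call was lost with slide as a block (adjusted p = 0.184). Bub1, the kinetochore kinase, had 1.60, 1.21 and 1.85 and was at least 2.65-fold higher (adjusted p = 6.14e-05). Bub1b, the gene of BUBR1, was at least 1.65-fold higher (adjusted p = 8.47e-05). Ttk, the gene of the kinase MPS1, was dim on the TIC arrays as well, with net Cy5 of 27.9, 20.8 and 20.8, and at least 1.1-fold higher (adjusted p = 0.004).

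**Figure D3:**
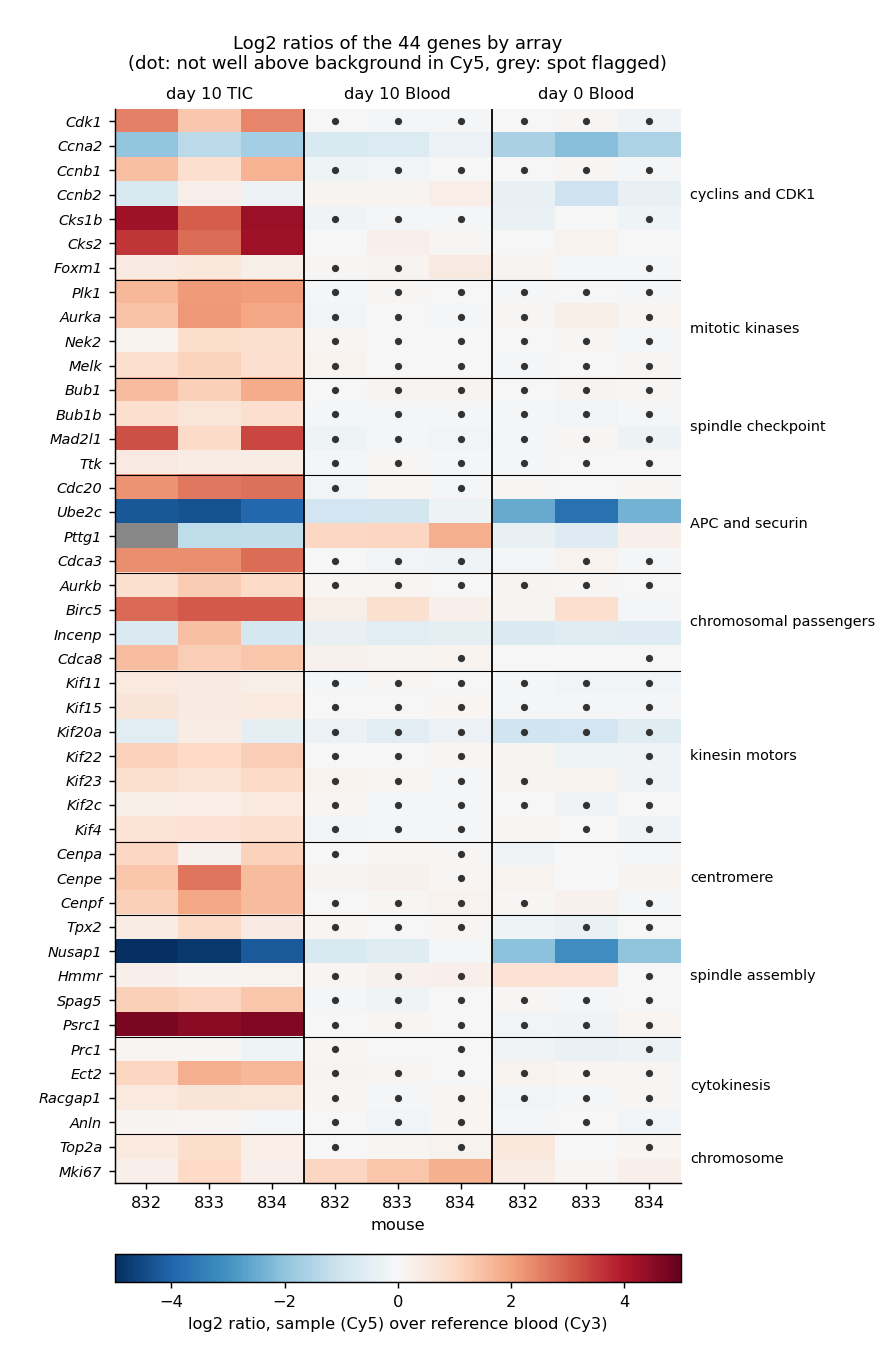
Log2 ratio of Cy5 over Cy3 for each of the 44 genes (rows, grouped by role) on the 9 arrays (columns: day 10 TIC, day 10 Blood and day 0 Blood, mice 832, 833 and 834 in each). Red is above and blue below the reference, a dot marks an array on which the gene was not well above background in Cy5, and grey is the flagged Pttg1 spot. Psrc1, Cks1b and Cks2 are the reddest rows on the TIC arrays, Nusap1 and Ube2c the bluest, and most blood cells carry a dot.

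Of the genes of anaphase onset, 2 of 3 tested were higher and 1 lower than in day 10 Blood by loess. Cdc20, the activator of the anaphase-promoting complex, had ratios of 2.24, 2.62 and 2.77 in the TIC fraction, -0.14, 0.10 and -0.10 in day 10 Blood and 0.04, 0.03 and 0.04 in day 0 Blood. The difference was 2.59 ± 0.14 from day 10 Blood (adjusted p = 2.25e-06) and 2.50 ± 0.14 from day 0 Blood (adjusted p = 3.85e-06), with no overlap between groups. Cdca3, which encodes a regulator of mitotic entry, had 2.32, 2.33 and 2.79 in the TIC fraction and between -0.17 and 0.16 in the bloods (adjusted p = 2.43e-06 against day 10 Blood).

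Ube2c encodes the ubiquitin-conjugating enzyme that works with the same complex. Its ratios were -4.25, -4.35 and -3.92 in the TIC fraction, -0.97, -0.91 and -0.25 in day 10 Blood and -2.52, -3.74 and -2.37 in day 0 Blood. The TIC fraction was lower by loess, with -3.46 ± 0.36 against day 10 Blood (adjusted p = 4.57e-05) and -1.30 ± 0.36 against day 0 Blood (adjusted p = 0.0119), and higher with median centring, with 2.37 and 3.03. The call against day 0 Blood was also lost with Cy5 alone (-0.51, adjusted p = 0.251) and with slide as a block (-1.01, adjusted p = 0.0989). In net Cy5 before normalization Ube2c had 8257, 763 and 3007 on the TIC arrays, against 321, 456 and 397 in day 10 Blood and 528, 129 and 162 in day 0 Blood. The reference channel was bright for this probe, at 6829 to 9096. Pttg1, the securin gene, was above background on all 9 arrays, and its net Cy5 was 157586, 16006 and 73568 on the TIC arrays, 2197, 3038 and 2600 in day 10 Blood and 5215, 2503 and 1710 in day 0 Blood. The TIC value of mouse 832 comes from the flagged spot and is less certain for Pttg1. The log2 ratios of Pttg1 were -1.25 and -1.23 in the TIC fraction of mice 833 and 834, and it was not tested.

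Of the chromosomal passenger complex, which corrects attachments and guides cytokinesis, 3 of 4 genes were higher. Birc5, which encodes survivin, was above background on all arrays, with ratios of 2.85, 3.08 and 3.08 in the TIC fraction, 0.31, 0.80 and 0.24 in day 10 Blood and 0.14, 0.82 and -0.06 in day 0 Blood. It differed by 2.55 ± 0.24 from day 10 Blood (adjusted p = 2.62e-05) and by 2.70 ± 0.24 from day 0 Blood (adjusted p = 2.76e-05). Cdca8, the borealin gene, differed by 1.20 ± 0.11 (adjusted p = 1.86e-05) from day 10 Blood. Aurkb, the Aurora kinase of the complex, was at least 1.68-fold higher than in day 10 Blood (adjusted p = 0.000252). Incenp, the scaffold of the complex, parted the TIC arrays, with -0.73, 1.49 and -0.86. Its difference from day 10 Blood was 0.42 ± 0.53 (adjusted p = 0.503), and without mouse 833 it was -0.34 (adjusted p = 0.00893, limma).

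Of the kinesin genes, 6 of 7 were higher than in day 10 Blood and all 7 higher than in day 0 Blood. In day 10 Blood all 7 stayed below the detection limit, and these differences have no reliable size. Kif11, Kif15, Kif20a and Kif2c were on no blood array above background and entered the test through the TIC arrays alone. Kif22, a motor that moves chromosome arms, had ratios of 1.14, 0.98 and 1.22 in the TIC fraction and -0.21 to 0.12 in the bloods (adjusted p = 8.02e-05 against day 10 Blood). Kif4, a chromosome-bound motor, had 0.69, 0.72 and 0.83 (adjusted p = 0.000121) and Kif23, the motor of the central spindle, 0.79, 0.70 and 0.97 (adjusted p = 0.00114). Kif11, the motor that drives the spindle poles apart, had TIC ratios of 0.49, 0.41 and 0.30, and Kif15 and Kif2c lay between 0.31 and 0.66. Kif20a, a motor of late mitosis, had ratios of -0.51, 0.38 and -0.44 in the TIC fraction, -0.29, -0.56 and -0.30 in day 10 Blood and -1.01, -0.94 and -0.59 in day 0 Blood, where it was on no array above background. It was called against day 0 Blood (adjusted p = 0.0367, and 0.059 with the mouse as a replicate block) and not against day 10 Blood (adjusted p = 0.482). A further Kif20a probe, on no day 10 and 1 day 0 Blood array above background, had values of 1.22 against day 10 Blood and 1.62 against day 0 Blood, so the probes disagree.

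All 3 centromere and kinetochore genes were higher in the TIC fraction. Cenpe, the kinetochore motor CENP-E, had ratios of 1.39, 2.69 and 1.60 in the TIC fraction and differed by 1.75 ± 0.29 from day 10 Blood (adjusted p = 0.000779) and 1.78 ± 0.29 from day 0 Blood. Its 2 further probes were on no blood array above background and give no size. Cenpf, a large protein of the outer kinetochore, had 1.18, 1.93 and 1.57 and was at least 2.73-fold higher than in day 10 Blood (adjusted p = 0.00012). Cenpa, the histone variant of centromeres, had 1.02, 0.23 and 1.16 and differed by 0.76 ± 0.22 from day 10 Blood (adjusted p = 0.0143). Without the TIC array of mouse 834 its call against day 10 Blood was lost (0.58, adjusted p = 0.0507, limma).

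Of the 5 spindle assembly genes tested, 3 were higher and 1 was lower than in day 10 Blood by loess. Psrc1, which encodes a microtubule-associated protein, had ratios of 4.69, 4.52 and 4.65 in the TIC fraction, 0.02, 0.06 and 0.03 in day 10 Blood and -0.13, -0.17 and 0.11 in day 0 Blood (adjusted p = 2.34e-07 and 2.01e-07). Its net Cy5 was 41025, 5760 and 19276 on the TIC arrays and under 5 on all blood arrays. All 3 Psrc1 probes were above background on all TIC arrays and on no blood array, so none of them gives a size. Spag5, the astrin gene, was at least 2.37-fold higher than in day 10 Blood (adjusted p = 1.53e-05). Tpx2, the activator of Aurora A, had TIC ratios of 0.35, 0.95 and 0.40 (adjusted p = 0.0259).

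Nusap1 encodes a protein that bundles microtubules around chromosomes. Its ratios were -5.09, -4.84 and -4.20 in the TIC fraction, -0.76, -0.62 and -0.10 in day 10 Blood and -2.06, -3.09 and -2.03 in day 0 Blood. Under loess the TIC fraction was lower by -4.22 ± 0.34 than day 10 Blood (adjusted p = 1.13e-05) and by -2.31 ± 0.34 than day 0 Blood (adjusted p = 0.000444). With median centring the differences were 1.1 (adjusted p = 0.0838) and 1.59. Net Cy5 was 1521, 276 and 1013 on the TIC arrays, 214, 313 and 256 in day 10 Blood and 391, 112 and 112 in day 0 Blood, so that mouse 833 overlapped with blood. A further Nusap1 probe was above background in Cy5 on none of the arrays. Hmmr, the hyaluronan receptor that also acts at spindle poles, had ratios of 0.25, 0.13 and 0.17 in the TIC fraction and 0.11, 0.21 and 0.27 in day 10 Blood (adjusted p = 0.949), where it was on no array above background.

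Genes of the central spindle and cytokinesis were split. Ect2, the exchange factor that starts the cleavage furrow, had TIC ratios of 1.08, 1.80 and 1.66 and was at least 2.48-fold higher than in day 10 Blood (adjusted p = 0.000121). A further Ect2 probe, above background on 2 TIC arrays and on no blood array, had a difference of 0.15. Racgap1, the partner of Ect2 at the central spindle, had 0.50, 0.65 and 0.61 and was higher than in day 10 Blood by loess (adjusted p = 0.00177), a call lost with Cy5 alone (0.24, adjusted p = 0.361). Prc1, which bundles the midzone microtubules, differed by -0.02 ± 0.11 (adjusted p = 0.902) and Anln, the anillin gene, by 0.07 ± 0.10 (adjusted p = 0.57). Both were dim in day 10 Blood, on 1 and 0 of 3 arrays above background, and a p that misses the threshold does not show that the groups are alike.

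The pair of genes most often used as marks of proliferation had small or lower values by loess. Top2a, the topoisomerase that untangles chromosomes, had TIC ratios of 0.47, 0.89 and 0.32 and differed by 0.48 ± 0.18 from day 10 Blood (adjusted p = 0.0434), and by 0.36 ± 0.18 from day 0 Blood (adjusted p = 0.116). Without the TIC array of mouse 832 or 833, without any single day 10 Blood array, without the day 0 Blood array of mouse 834, or with the mouse as a replicate block, the call against day 10 Blood was lost (adjusted p = 0.0592 to 0.118). A further Top2a probe, above background on all TIC arrays and on no blood array, had values of 0.80 against day 10 Blood and 0.72 against day 0 Blood. Mki67, the gene of the Ki-67 antigen, had 0.25, 1.0 and 0.24 in the TIC fraction, 1.07, 1.39 and 1.77 in day 10 Blood and 0.39, 0.07 and 0.26 in day 0 Blood. It was lower than in day 10 Blood by loess (-0.91 ± 0.24, adjusted p = 0.00966) and higher with median centring (3.23, adjusted p = 6.35e-05). A further Mki67 probe, above background on all arrays, gave -0.09 against day 10 Blood. In net Cy5 the Mki67 probe used in the tests had 4426, 1656 and 1643 on the TIC arrays, against 99.9, 166 and 138 in day 10 Blood.

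**Figure D4:**
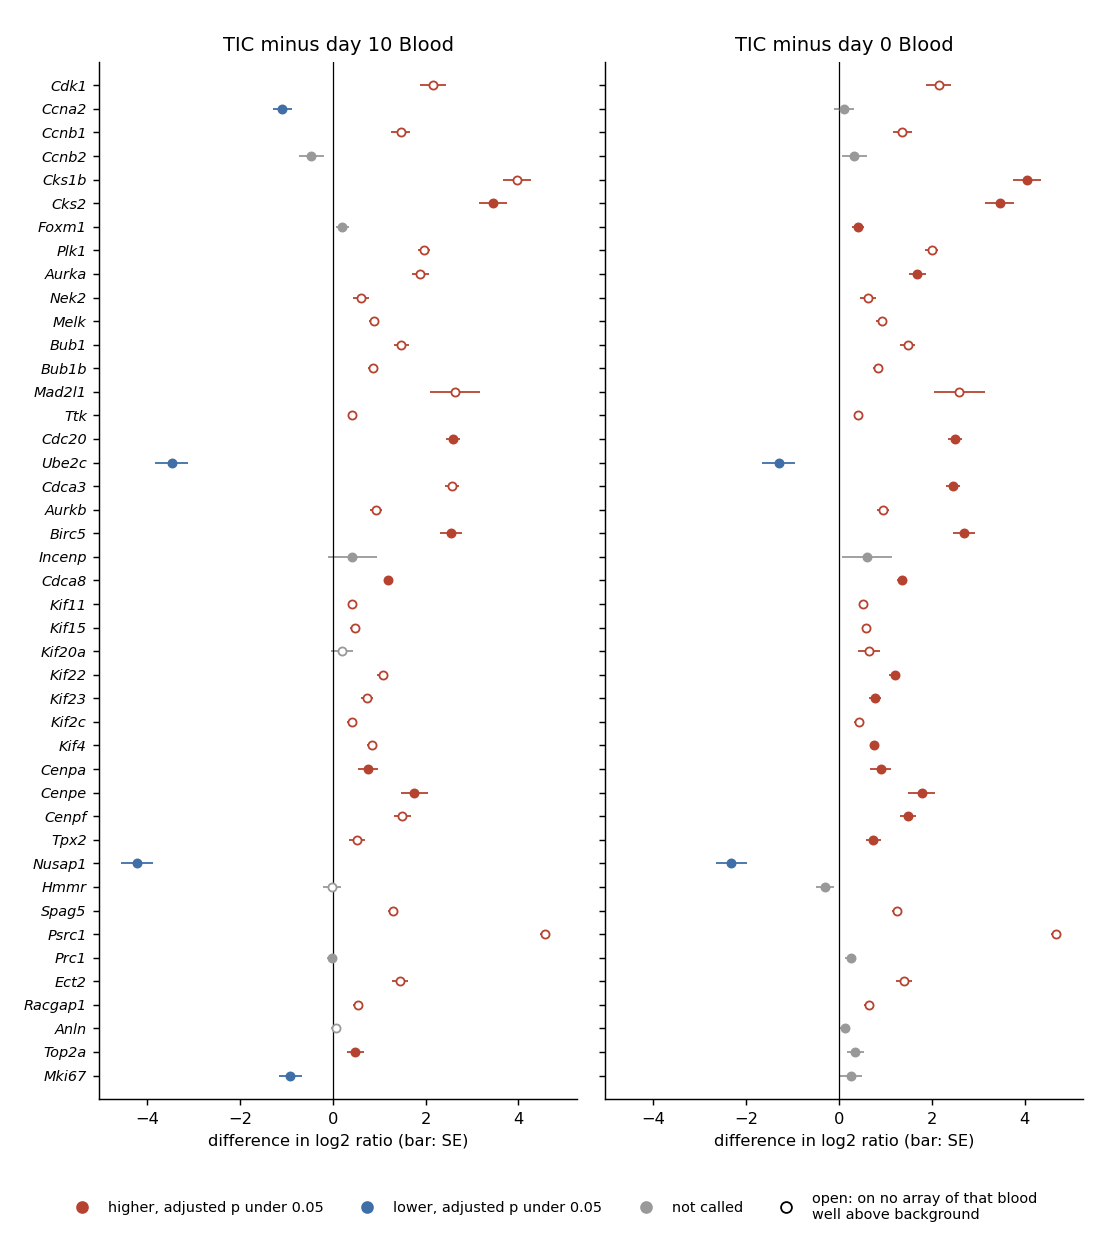
Differences in log2 ratio with their SE for the 43 tested genes, TIC fraction minus day 10 Blood (left) and minus day 0 Blood (right), by loess. Red is higher and blue lower at an adjusted p under 0.05, grey is not called, and open points were on no array of that blood above background, so their size is not reliable. Most red points on the left are open, among them Psrc1, and the blue points, Nusap1, Ube2c, Ccna2 and Mki67 on the left, turn to positive values with median centring.

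The slides bore on these comparisons. The TIC array of mouse 832 was alone on its slide, and TIC and day 10 Blood arrays shared no slide, so slide and group cannot be told apart there other than through day 0 Blood. With slide as a block, 22 of the 43 genes were higher and 3 lower than in day 10 Blood, where 1498 and 2776 of all 14253 genes were. Mad2l1, Cenpa, Kif23, Top2a, Ccna2 and Mki67 were among the calls lost. With mouse as replicate block and slide as a block together 6 were higher and 1 lower, with 2 residual degrees of freedom. Of all 14253 genes 214 were then higher and 896 lower. On the one slide that held TIC and day 0 Blood arrays, 40 of the 43 were higher in the TIC fraction in value, with a median of 0.96.

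Day 10 Blood was compared with day 0 Blood to see whether dividing cells show in the circulation after inoculation. In the fit of all 9 arrays none of the 43 genes was called, and 0% of all tested genes were. At an unadjusted p under 0.05, 6 of the 43 were higher, where 8.7% of all genes were, and none was lower, where 6.06% were. These 6 were Ube2c, Nusap1, Ccna2, Mki67, Ccnb2 and Prc1. On all 3 day 10 arrays 10 of the 43 lay above all 3 day 0 arrays, where 15.7% of all genes did, and 1 (Aurka, below background in day 10 Blood) lay below them, where 17.2% did. Among the 10, Kif15 and Kif20a were on no blood array above background, and Prc1 was on 1 of 3 day 10 arrays. The median difference of the 43 was 0.03, and 28 of the 44 were on no day 10 Blood array above background, so most of the set could not be compared.

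The genes with the largest values were those bright in blood. Ube2c differed by 2.17 ± 0.36 (adjusted p = 0.0659), with 1.56, 2.83 and 2.12 in the 3 mice. Nusap1 differed by 1.90 ± 0.34 (adjusted p = 0.0676), Ccna2 by 1.20 ± 0.21 (adjusted p = 0.0664) and Mki67 by 1.17 ± 0.24 (adjusted p = 0.0921). The fit's spread came in part from the TIC arrays, and the call of these 4 depended on it. In a fit restricted to the bloods, all 4 were called (adjusted p = 0.026 to 0.0322), as they were with Cy5 alone, with the deposited log ratio and with the 8 genes above background on all 9 arrays that had values on all of them. Of all 14253 genes, 376 were higher and 371 lower in the fit of the bloods. Cy5 alone gave 241 and 351, and the deposited log ratio 141 and 616. With the filter on all 9 arrays, 101 of 3897 genes were higher and 46 lower. Without the TIC array of mouse 833 the 4 were called together with Ccnb2, where 534 of all 14253 genes were higher and 524 lower. With the mouse as a replicate block only Ube2c was called (adjusted p = 0.0491), where 29 of all 14253 genes were higher and 3 lower. With median centring the differences were 0.65, 0.50, 0.17 and 0.11, and none was called.

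Ccnb2 differed by 0.80 ± 0.27 (adjusted p = 0.227). Pttg1, which was not tested, had ratios of 1.05, 1.06 and 1.81 in day 10 Blood and -0.38, -0.65 and 0.26 in day 0 Blood, higher in each mouse. On the scale of net Cy5 the bloods overlapped for Ube2c, Nusap1, Ccna2, Mki67, Ccnb2 and Pttg1, with Ube2c at 321, 456 and 397 in day 10 Blood and 528, 129 and 162 in day 0 Blood. A further Mki67 probe gave 0.26, and Birc5 and Cks2, which are also above background on all arrays, differed by 0.15 ± 0.24 and 0.02 ± 0.31. Red cell genes had values in the same direction: of 6 erythroid genes tested 4 were higher at an unadjusted p under 0.05, and their median difference was 1.26, with 1.07, 1.59 and 1.25 in the 3 mice. Their median ratio was 0.28, 0.35 and 0.49 in day 10 Blood and -0.86, -1.61 and -0.82 in day 0 Blood, and -7.92, -6.75 and -7.07 in the TIC fraction. All 6 were above background on all blood arrays. Their part in the values of the mitosis genes was not tested. On the one slide with both bloods, Ube2c differed by 1.66, Nusap1 by 1.54, Mki67 by 1.15 and Ccna2 by 1.0.

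**Figure D5:**
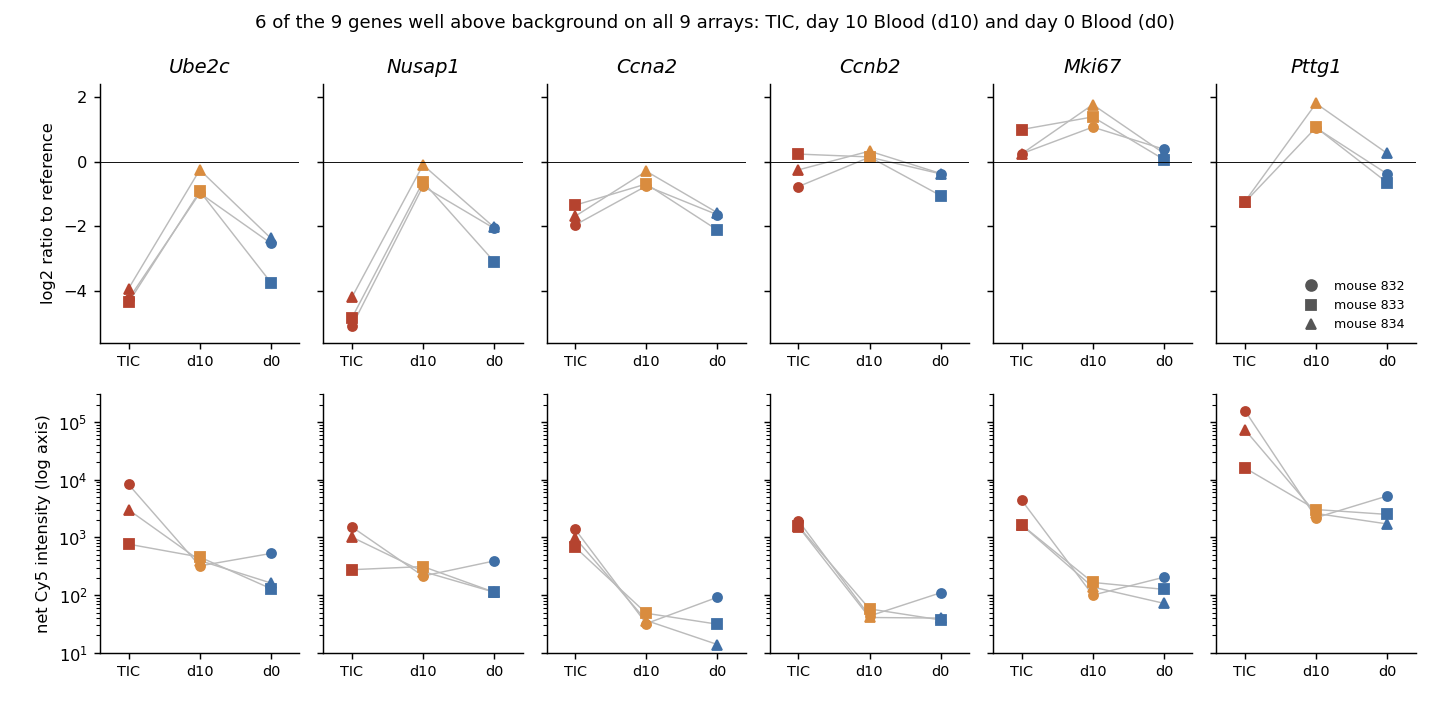
Log2 ratio to the reference (top) and net Cy5 intensity before normalization (bottom, log axis) for 6 of the 9 genes above background on all arrays, those with the largest values in day 10 Blood over day 0 Blood. Lines join the arrays of a mouse, with the TIC fraction at left, day 10 Blood (d10) in the middle and day 0 Blood (d0) at right. In log2 ratio day 10 Blood lies above day 0 Blood in every mouse for all 6, while in net Cy5 the TIC fraction lies highest in every mouse for all but Nusap1 in mouse 833. The net Cy5 of Pttg1 in the TIC fraction of mouse 832 is from the flagged spot.

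Other genes of the same machinery were read from lists of pathway members that do not include the 44. The filter bears on the counts of these lists too. Genes such as Nuf2, Ckap2, Gtse1 and Lin9 were on no blood array above background and entered the test through the TIC arrays alone. How many such genes each list held was not counted. Against day 10 Blood, where 34.4% of all tested genes were higher and 33.1% lower, 23 of 38 kinetochore genes were higher and 2 lower, with a median of 0.62, and 24 of 39 centrosome and spindle genes were higher and 2 lower, with a median of 0.58. Examples were Nuf2, of the kinetochore's microtubule-binding complex, on no blood array above background (adjusted p = 7.10e-05), and Bub3, a partner of the checkpoint kinases (2.24 ± 0.15, adjusted p = 5.29e-06). Ran, the GTPase that steers spindle assembly, was higher by 2.63 ± 0.24. Of 20 condensin and cohesin genes 12 were higher and 2 lower (median 0.46). Ncapg, a condensin subunit, was higher by 1.71 ± 0.11 (adjusted p = 4.09e-06), and Wapl, which releases cohesin, differed by -4.28 ± 0.26 (adjusted p = 3.12e-06). Of 13 mitotic entry genes 8 were higher and 1, the CDK1-activating phosphatase Cdc25b, was lower (-9.23 ± 0.61, adjusted p = 4.32e-06).

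The remaining 3 lists had values that changed with the scaling. Of 17 further genes of the anaphase-promoting complex 5 were higher and 5 lower (median 0.29), near the shares over all genes, and all 17 were higher with median centring. The genes lower by loess included Fzr1, its activator in G1 (-2.79 ± 0.31, adjusted p = 7.75e-05). Of 16 MuvB, Rb and E2F genes, also near those shares, 4 were higher (12 with median centring, and 1 lower), among them Lin9 of the MuvB core, and 5 lower, among them Rb1 (-3.97 ± 0.22, adjusted p = 2.22e-06) and Tfdp2, an E2F partner (-8.24 ± 0.46, adjusted p = 2.27e-06). Of 11 cell cycle brakes 3 were higher, including the CDK inhibitor gene Cdkn1a, on no blood array above background (adjusted p = 8.76e-06), and 6 lower, including Gadd45a (-4.49 ± 0.15, adjusted p = 5.32e-07), with a median of -0.91. With median centring the brakes had a median of 2.86, above the all-gene median of 1.38, and none was lower, so their direction rests on the scaling. The medians of the kinetochore, centrosome, condensin and mitotic entry lists stayed above that of all genes with the deposited log ratio, Cy5 alone and median centring.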

How the data were processed

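The authors deposited scanner tables of 9 two-colour arrays with mean spot and median local background intensity per channel, made with Agilent Feature Extraction 10.5.1.1 per the file headers (9.1.3.1 in the submitters' processing notes). The deposited series table holds the log10 ratio of Cy5 over Cy3, background-subtracted and dye-normalized by linear and lowess steps per the file headers, and was used as an alternative. Dyes were not swapped.

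Here, intensities were background-corrected (normexp, offset 50, without spots of non-uniform local background), normalized by loess within arrays and averaged per probe. Probes were kept that had values on all 9 arrays and passed the scanner's above-background flag in Cy5 on 3 or more, and the brightest probe stood for each gene, 14253 in all. Tests used lmFit and eBayes of limma 3.58.1 under R 4.3.3 (group as the only term, 6 residual degrees of freedom) with Benjamini-Hochberg adjustment over all tested genes at 0.05. In simulated data for the TIC fraction against day 10 Blood with 14253 genes, 61 of 100 log2 changes of 1 and 89 of 100 of 2 were recovered. Lower bounds rest on each channel's own values (loess, then Aquantile) and are open to dye bias. The number of arrays, 3 a group, limits the precision, and no SE holds dye bias.

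The genes, their role groups and all lists were chosen with earlier results of these data known. Values are given for the 3 genes of smallest p in each role group, for every gene called lower in the TIC fraction, and for further genes chosen after their values were seen. Mice pair the samples, since each number is one animal. Deviations from group means correlated within mice at -0.06 to 0.06 between TIC and day 10 Blood, -0.06 to -0.01 between TIC and day 0 Blood and 0.19 to 0.35 between the bloods. Gene names followed RefSeq accessions for 23374 of 41174 probes, current symbols for 6733 and synonyms for 2919, and the names in the files for 8148.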

Additional observations from a re-analysis of the deposited data

How the results depend on the processing

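Fits with other scalings, filters, blocks and left-out arrays were compared. The calls over all genes changed with the setting too, as given above for several of them. Against day 10 Blood the count of higher genes lay between 22 and 40, except for 2 with the filter on all 9 arrays, which leaves 8 genes, and 6 with mouse as replicate block and slide as a block. Lower genes numbered 4 with most settings, 1 with both blocks and 0 with median centring. Leaving out 1 array gave 30 to 32 higher and 4 to 6 lower. Against day 0 Blood, the filter on all 9 arrays gave 2 higher, Cy5 alone 1 lower and median centring 0 lower, and leaving out 1 array gave 31 to 34 higher and 2 to 3 lower. Between the bloods, 4 genes were called with the deposited log ratio, with Cy5 alone, with the filter on all 9 arrays and with only the 2 groups in the fit, and 1 with the mouse as a replicate block. Leaving out 1 array gave 0 to 5, the highest without the TIC array of mouse 833. The replicate block changed no other call in direction, with 31 and 31 genes higher in the TIC fraction than in day 10 and day 0 Blood.

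Among the genes of smallest p in each role group and those called lower, a called direction was reversed only with median centring: against day 10 Blood for Ube2c (2.37), Mki67 (3.23), Nusap1 (1.1) and Ccna2 (3.02), and against day 0 Blood for Ube2c (3.03) and Nusap1 (1.59). Outside these, some genes not called against day 10 Blood changed sign without the TIC array of mouse 833. They were Incenp (0.42 to -0.34), Kif20a (0.20 to -0.09) and Hmmr (-0.015 to 0.012). The cause was not tested. Signal over background limits the comparison of the bloods, since 28 of 44 genes were on no day 10 Blood array above background.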
